A study of Drosophila melanogaster with 12 samples.

Results

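Flies make many of their contact pheromones from fatty acids, and 7 genes with known parts in that chemistry in Drosophila were followed here across 12 arrays of fly heads: the desaturase genes Desat1, Desat2 and Fad2, also called desatF, and the elongase genes eloF, bond, Baldspot and Elo68alpha. Members were chosen by name, as the probe sets that the platform annotation assigns to 1 of these genes alone. That gave 6 probe sets of 18952, for 6 of the 11981 genes that a probe set names alone. Each member had 1, except Baldspot, which no probe set in the annotation table used here names alone and which is not analysed here. The 4 groups of 3 arrays held total RNA from whole heads of Drosophila melanogaster, marked OR in the labels, which do not expand it. Conditioned flies were taken at 0 h and at 24 h after conditioning, and non-conditioned flies at 0 h and at 24 h after what the labels call non-conditioning. The kind of behavioural stimulus is not given, and sex and age are not given either. The labels call 3 of the conditioned arrays biological duplicates and say nothing of how the others relate, so the spread behind each p-value may in part be technical.

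In insects, fatty acid synthases and elongases build acyl chains, desaturases place double bonds in them, and a P450 enzyme, Cyp4g1 in flies, turns the product into the waxy hydrocarbons of the cuticle. Much of this takes place in the oenocytes, large cells under the abdominal cuticle, and the number and place of double bonds and the chain length differ between the sexes and between strains. Fatty acids from the same enzymes also go into membranes and fat stores, so that some of these genes are active in many tissues.

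The head arrays showed strong signal from Desat1 and bond and weak signal from the other 4 members. Desat1, which encodes the general desaturase that supplies unsaturated fatty acids for hydrocarbons of both sexes, ranged from 3217 to 5346 in deposited intensity, a linear scale in arbitrary units. The elongase gene bond, which is required for an oxygenated sex pheromone of male flies and for sperm development, ranged from 284 to 382. Both lay above the median of their own array on all 12 arrays, where array medians ran from 19.9 to 21.8. Desat2, Fad2, eloF and Elo68alpha averaged 13.6, 5.78, 5.41 and 2.30 over the arrays. Fad2, eloF and Elo68alpha were below the array median on 12 of 12 arrays and Desat2 on 11 of 12. A filter that kept the brightest 60% of probe sets, with means of at least 8.38, passed Desat1, bond and Desat2, so 3 members were tested with all genes. Desat2 passed it with a mean of 13.6, and Fad2 was the nearest member below it, at 5.78.

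As a check of the labelled tissue, neuronal (3 of 4 listed genes measured), photoreceptor (1 of 3) and glial (2 of 3) markers were present on every array. Of these, elav, a neuronal RNA-binding protein gene, lay between 623 and 766 and repo, a glial transcription factor gene, between 297 and 427. Oenocyte markers were dim throughout: the intensities of Cyp4g1, FASN2 and FASN3, all 3 of that list, summed to between 15.3 and 60.9 per array. Ejaculatory bulb markers, 3 of 3 measured, summed to between 4541 and 6684, nearly all from PebIII at 4482 to 6642. In that list Peb read at most 58.5 and PebII at most 5.33. Testis markers, 4 of 4 measured, summed to between 8.36 and 40.9. Yolk protein transcripts, made by female fat body, summed to 8629, 12468 and 17710 in conditioned 0 h replicate 3 and conditioned 24 h replicates 1 and 2, against 199 to 277 on the other 9 arrays. Male accessory gland transcripts, 12 of 13 listed genes measured, summed to 952 in non-conditioned 0 h replicate 3 and to between 57.2 and 92.0 elsewhere. For each difference that passed the threshold, fits without the 3 yolk arrays and fits leaving out 1 array at a time are reported below. Other differences are given without these arrays only in part, and the 4 arrays were not left out together.

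**Figure D1:**
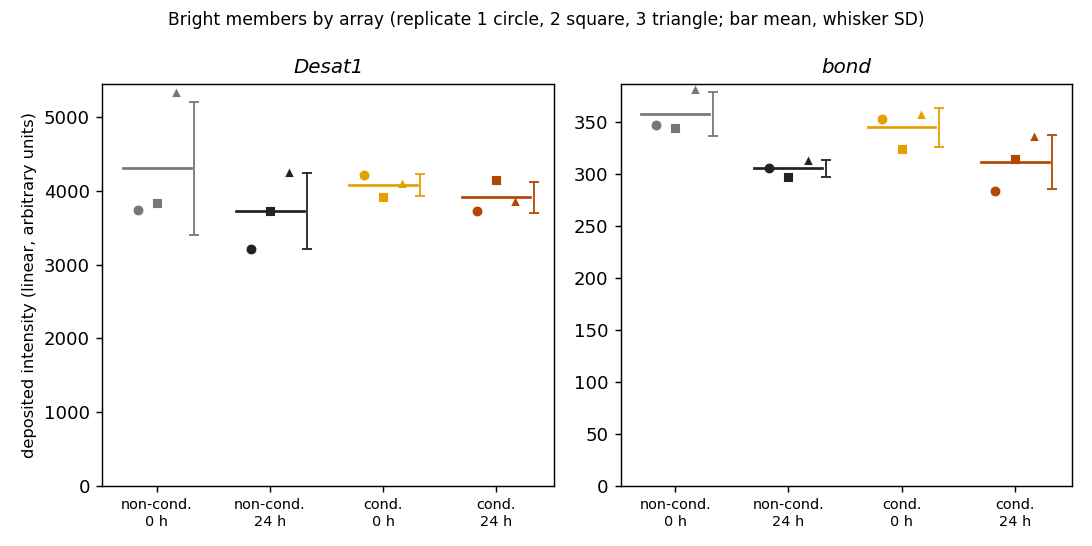
Deposited intensity (linear axis from 0, arbitrary units) of Desat1, left, and bond, right, in the 4 groups; each point is 1 array, the bar is the group mean and the whisker the SD of 3 arrays. For bond, the non-conditioned arrays at 24 h (298 to 313) all lie below those at 0 h (344 to 382), while the Desat1 groups overlap and non-conditioned 0 h replicate 3 stands highest at 5346.

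Desat1 intensities in non-conditioned heads were 3738, 3829 and 5346 at 0 h and 3217, 3720 and 4249 at 24 h. In conditioned heads they were 4218, 3915 and 4104 at 0 h and 3730, 4143 and 3867 at 24 h. The groups overlapped in all 4 pairwise comparisons, and both the lowest and the highest array were non-conditioned. Group means were 4304 ± 903 (SD, n = 3), 3729 ± 516, 4079 ± 153 and 3914 ± 210 in that order. No mean was apart from its neighbour by more than the larger SD of the pair. The highest array, replicate 3 at 0 h without conditioning, is the one with accessory gland transcripts, and whether these bear on its Desat1 value was not tested. After quantile normalization, which gives every array the same distribution of values, that array still read highest, at 4650 against 3455 to 4283 on the others.

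Right after conditioning, Desat1 differed from non-conditioned heads by -0.06 on the log2(intensity + 16) scale, with a 95% interval from -0.27 to 0.16, or 0.826 to 1.12 in fold (limma adjusted p = 0.864). At 24 h the difference was 0.08, from -0.14 to 0.29 (adjusted p = 0.999). The direction at 0 h was not settled: it turned to 0.08 without non-conditioned 0 h replicate 3, to 0.07 without the 3 arrays with yolk transcripts and to 0.04 after quantile normalization. It also split by the form of the sample title, of which there are 2, with and without a # sign. Within the 8 arrays with the sign, conditioned heads were higher by 0.10 at 0 h and by 0.18 at 24 h, and within the 4 arrays without it, 1 per group, lower, at -0.38 and -0.14. At 24 h the value without the 3 yolk arrays was -0.20, with a single conditioned array left. Averaged over both times, the conditioning effect on Desat1 was 0.01, with an interval from -0.14 to 0.16.

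Between the times, Desat1 had a difference of -0.20, 24 h against 0 h, in non-conditioned heads (interval -0.41 to 0.02, adjusted p = 0.343) and of -0.06 in conditioned heads (-0.28 to 0.16, adjusted p = 0.826). Without non-conditioned 0 h replicate 3 the former became -0.06, and after quantile normalization it became -0.07. Without the 3 yolk arrays the conditioned value was -0.47 (adjusted p = 0.592), from a single 24 h array. Neither passed under any alternative tried.

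The one difference among the members that passed was in bond, which was lower at 24 h than at 0 h in non-conditioned heads. Its intensities were 347, 344 and 382 at 0 h and 306, 298 and 313 at 24 h, so that the groups did not overlap. Means fell from 358 ± 21.3 to 306 ± 7.88 (SD, n = 3), a log2 change of -0.22 ± 0.06 (SE, limma adjusted p = 0.0391), or 0.861-fold with an interval from 0.791 to 0.937. Of the 3 tested members 1 was thus called, where 5.19% of all 11261 probe sets were called in this comparison and 19.2% had groups that did not overlap. In bulk heads, fewer cells that express a gene and less RNA per cell cannot be told apart.

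In conditioned heads bond read 353, 324 and 358 at 0 h and 284, 314 and 336 at 24 h, and the groups overlapped. The means were 345 ± 18.4 and 312 ± 26.3, with a log2 difference of -0.14 ± 0.06 (interval -0.26 to -0.02, unadjusted p = 0.0257 and limma adjusted p = 0.194). That is 0 of 3 members called and 1 with an unadjusted p under 0.05. Over all 11261 probe sets, 4.62% were called, 2050 had an unadjusted p under 0.05 and 28.2% had groups that did not overlap. Whether the change over the day differed with conditioning was tested as an interaction, and the difference of 0.07 had an interval from -0.10 to 0.25 (adjusted p = 0.901).

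The lower bond signal at 24 h had the same sign within both title forms. It was -0.19 among non-conditioned arrays with the # sign and -0.27 between the 2 without it, and -0.17 and -0.08 among conditioned arrays. As a call, however, the result in non-conditioned heads was marginal. It missed the threshold in 8 of 12 fits that left out 1 array: non-conditioned 0 h replicate 1 (adjusted p = 0.0926), 2 (0.0774) or 3 (0.13), non-conditioned 24 h replicate 2 (0.0673) or 3 (0.195), conditioned 0 h replicate 2 (0.0503), and conditioned 24 h replicate 2 (0.0523) or 3 (0.0513). The estimate in those 12 fits stayed between -0.24 and -0.19. It also missed the threshold without the title term (0.068), with median centring (0.087) and without the 3 yolk arrays (0.0782). Head muscle markers were also lower at 24 h: the summed intensity of Mlc2 and up, 2 of 3 listed genes, was 1331 to 1550 at 0 h and 1094 to 1156 at 24 h without conditioning, and 1361 to 1439 and 1097 to 1139 after it. Fat body markers, 4 of 5 measured, summed to 11936 to 13170 at 0 h and to 12468 to 17102 at 24 h in non-conditioned heads, which overlap, and to 11431 to 11878 and 13772 to 15845 in conditioned heads, which do not. Of the fat body markers in conditioned heads, only Lsp2 did not overlap, at 3574 to 4233 and 5526 to 6377, while apolpp, apoLTP and fit did. In non-conditioned heads Lsp2, apoLTP and fit did not overlap and were higher at 24 h, while apolpp overlapped. The part of head muscle and fat body in the bond result was not tested.

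For conditioning itself, the bond difference from non-conditioned heads was -0.05 at 0 h (interval -0.17 to 0.07, adjusted p = 0.782) and 0.02 at 24 h (-0.10 to 0.15, adjusted p = 0.999), which as fold changes spans 0.888 to 1.05 and 0.934 to 1.11. These were the narrowest intervals among the 3 tested members.

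**Figure D2:**
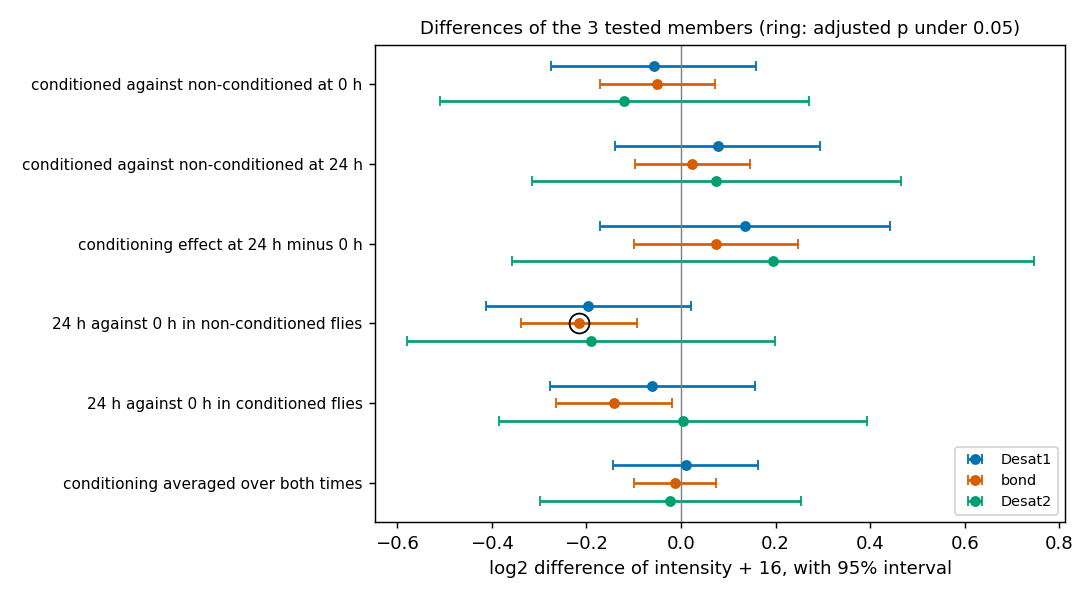
Log2 differences of intensity + 16 (horizontal axis) with 95% intervals for Desat1, bond and Desat2 in the 6 comparisons (vertical axis); the ring marks an adjusted p under 0.05. Only bond, 24 h against 0 h in non-conditioned flies, carries a ring, at -0.22, and the Desat2 intervals are the widest.

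Across the comparisons of conditioning, limma called 0 of 3 members at 0 h, 0 at 24 h, 0 in the interaction and 0 in the average over both times. In each of these, 0 members also had an unadjusted p under 0.05. Over all probe sets 0.533% were called at 0 h, 0.0% at 24 h, 0.0% in the interaction and 0.115% in the average, with 1377, 484, 807 and 1151 probe sets at an unadjusted p under 0.05. Groups that did not overlap were found in 0 of 3 members at 0 h, where the share over all probe sets was 17.6%, and in 0 of 3 at 24 h, where it was 10.5%. With so few calls in the background, a count of 0 among 3 members says little about them, and the intervals above carry the result.

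**Figure D3:**
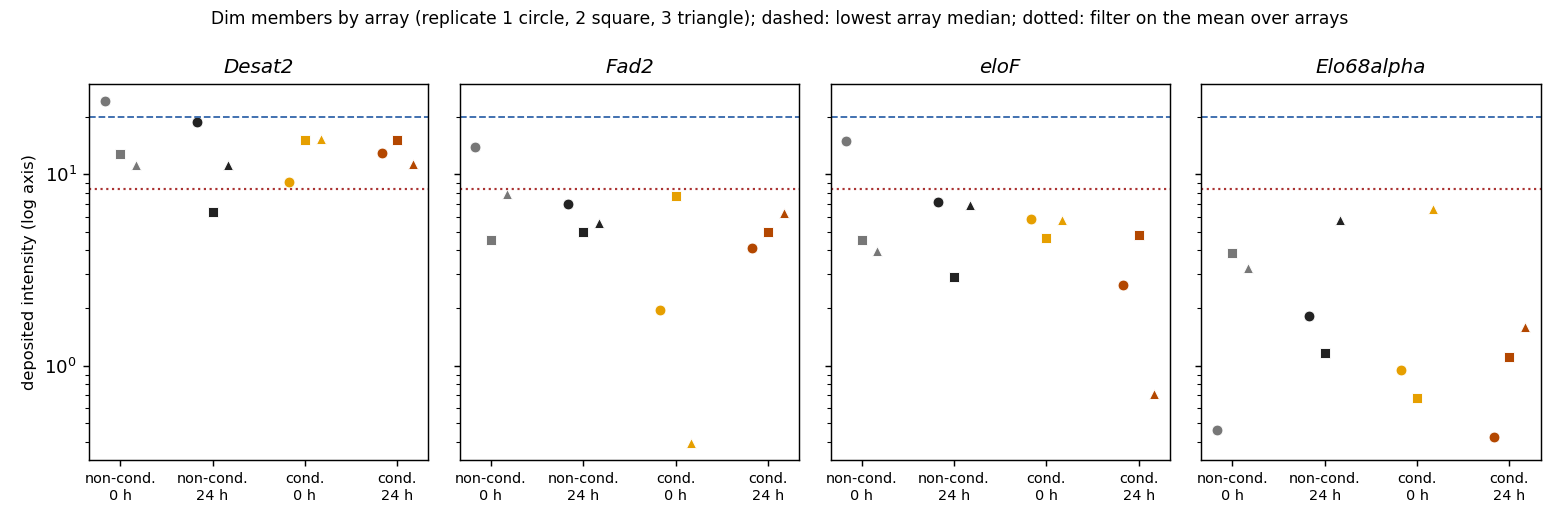
Deposited intensity (log axis) of Desat2, Fad2, eloF and Elo68alpha in the 4 groups; each point is 1 array, the dashed line is the lowest array median, 19.9, and the dotted line the lowest mean intensity kept by the filter, 8.38. Nearly all points lie under the dashed line, and non-conditioned 0 h replicate 1 is the highest array for Desat2, Fad2 and eloF.

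Desat2 encodes a desaturase that shifts the double bond of female hydrocarbons in some natural populations, and a promoter deletion silences the gene in many laboratory strains. Its intensities in non-conditioned heads were 24.2, 12.7 and 11.2 at 0 h and 18.7, 6.35 and 11.2 at 24 h. In conditioned heads they were 9.13, 15.1 and 15.3 at 0 h and 13.0, 15.2 and 11.3 at 24 h. All groups overlapped, and a single array, non-conditioned 0 h replicate 1, rose above its array median. The 6 log2 differences lay between -0.19 and 0.19, with adjusted p-values of 0.651 or more, and the interval for conditioning at 0 h ran from -0.51 to 0.27. An offset of 1 in place of 16, which gives dim values more weight, moved the difference between the times in non-conditioned heads from -0.19 to -0.42 (adjusted p = 0.643).

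In the RefSeq gene order of the fly genome, Desat2 and Desat1 are close neighbours, with 2 protein-coding genes listed between them. Over the 12 arrays, which share scaling and groups, their log2 values had a Pearson correlation of -0.33 and a Spearman correlation of -0.34, with the Desat2 values in the dim range. Desat1 and bond had values of 0.64 and 0.59, and share their highest array.

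Fad2 and eloF encode the desaturase and the elongase by which female flies make their long dienes, and both are active mainly in female oenocytes. Fad2 read 14.0, 4.55 and 7.88 in non-conditioned heads at 0 h and 7.01, 5.00 and 5.57 at 24 h. In conditioned heads it read 1.94, 7.71 and 0.397 at 0 h and 4.14, 4.97 and 6.25 at 24 h. All lay below the median of their arrays, and their order is given as a description. In a fit with no filter, Fad2 differed with conditioning at 0 h by -0.36 (interval -0.70 to -0.02). Its limma unadjusted p was 0.0387 and its adjusted p 0.47.

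The values of eloF were 15.0, 4.54 and 3.98 in non-conditioned heads at 0 h and 7.14, 2.92 and 6.94 at 24 h. In conditioned heads they were 5.88, 4.65 and 5.76 at 0 h and 2.65, 4.79 and 0.716 at 24 h. The 3 arrays with yolk transcripts lay between 2.65 and 5.76 for eloF, against 0.716 to 15.0 on the other 9, and between 0.397 and 4.97 for Fad2, against 1.94 to 14.0. At this brightness neither a rise nor its absence could be read from these values.

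Elo68alpha, an elongase gene of the male reproductive tract with a part in the level of cis-vaccenyl acetate, read 0.461, 3.86 and 3.24 in non-conditioned heads at 0 h and 1.81, 1.16 and 5.74 at 24 h. In conditioned heads it read 0.947, 0.681 and 6.58 at 0 h and 0.425, 1.11 and 1.60 at 24 h. The array with accessory gland transcripts, at 3.24, lay within the range of the others. In a fit with no filter, the lowest adjusted p over 6 comparisons was 0.47 for Fad2, 0.709 for eloF and 0.734 for Elo68alpha. With such dim probe sets a difference of moderate size was not detectable, and a low intensity does not show that a gene is silent.

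Genes whose pattern over the 12 arrays was most like that of a tested member were ranked by Pearson correlation of log2 values among 9702 other probe sets naming 1 gene. For bond they were ClpX (r = 0.91, Spearman 0.90), the gene of a mitochondrial protease subunit, BomS2 (0.89 and 0.92), which encodes a small immune peptide, and LTV1 (0.88 and 0.91). For Desat1 they were Fie (0.94 and 0.90), CG6770 (0.94 and 0.92) and CG10527 (0.91 and 0.73). These 3 probe sets, like Desat1, were bright, at 2017 or more on all arrays, and were highest in non-conditioned 0 h replicate 3 and lowest in non-conditioned 24 h replicate 1. For Desat2 they were dtn (0.91 and 0.80), Klp10A (0.85 and 0.76) and slim (0.84 and 0.68), and all 3 shared its highest and lowest arrays. With 9702 candidates and 12 arrays that share scaling and groups, high values are common, and they are given as a description.

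Of the other fatty acyl desaturase genes, 6 of 6 listed had a probe set and 5 were tested. CG8630, a predicted acyl-CoA desaturase gene, was lower at 24 h than at 0 h in conditioned heads and was the 1 member of that list past the threshold in any of the 6 comparisons. It read 170, 180 and 182 at 0 h and 137, 127 and 146 at 24 h, with no overlap, in a comparison where 28.2% of all probe sets did not overlap and 4.62% were called. In non-conditioned heads, at 175 to 191 and 155 to 172, the groups did not overlap either, as for 19.2% of all probe sets. The log2 change was -0.35 ± 0.07 (SE, limma adjusted p = 0.00908), against -0.16 in non-conditioned heads (adjusted p = 0.228), and the interaction had an adjusted p of 0.755. At 24 h conditioned heads differed from non-conditioned ones by -0.23, without overlap (limma unadjusted p = 0.00484, adjusted p = 0.999). In that comparison 10.5% of all probe sets did not overlap, 484 had an unadjusted p under 0.05 and 0.0% were called. The head muscle and fat body sums given for bond also did not overlap between the times in conditioned heads, Lsp2 being the only fat body marker that did not. The part of these tissues in the CG8630 result was not tested. Without the 3 yolk arrays, with 1 conditioned array left at 24 h, the value was -0.14 (adjusted p = 0.932). The call was also lost without conditioned 24 h replicate 2 (0.0648), without conditioned 0 h replicate 3 (0.0623) and in the # arrays alone (0.0558). The other 4, ifc, Cyt-b5-r, CG9743 and CG9747, did not pass. CG9747 differed with conditioning by -0.24 at 24 h (limma unadjusted p = 0.0032, adjusted p = 0.999). Averaged over both times its difference was -0.20 (unadjusted p = 0.00089, adjusted p = 0.16). Its conditioned and non-conditioned groups did not overlap at 0 h or at 24 h, where 17.6% and 10.5% of all probe sets did not. The median of the 5 at 24 h against 0 h was -0.06 in both arms, with 0.00 and -0.01 over all probe sets.

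Among 16 listed further elongase genes, 15 had a probe set and 9 were tested. CG33110, a predicted very long chain fatty acid elongase gene, was highest in non-conditioned heads at 0 h, where it read 550, 559 and 554. Right after conditioning it read 426, 386 and 430. At 24 h it read 441, 387 and 441 in non-conditioned heads and 450, 394 and 458 in conditioned heads. Every other array thus lay below the non-conditioned 0 h arrays, which stood apart as a group. CG33110 had a log2 difference of -0.41 ± 0.06 (SE) in conditioned against non-conditioned heads at 0 h (limma adjusted p = 0.00944) and of -0.38 ± 0.06 over the day in non-conditioned heads (0.00207), 2 comparisons that share the non-conditioned 0 h arrays. The same contrasts had the same sign within both title forms, at -0.44 and -0.35 for conditioning and at -0.41 and -0.32 for time. The conditioning effect at 24 h was 0.03 (adjusted p = 0.999), and the interaction of 0.44 did not pass (adjusted p = 0.125).

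The fall of CG33110 over the day without conditioning passed in all 23 alternatives. In that comparison the head muscle sum given for bond was also lower at 24 h, without overlap, while the fat body sums overlapped. The head muscle sum was lower at 24 h in conditioned heads too, where CG33110 had a log2 difference of 0.06. The part of these tissues in the CG33110 result was not tested. The difference at 0 h missed the threshold without conditioned 0 h replicate 2 (adjusted p = 0.0859), without the 3 yolk arrays (0.0601), in the # arrays alone (0.0818) and without the variance trend (0.091). Elovl7, a further elongase gene of this list, had a like order of values, from 1077 to 1188 in non-conditioned heads at 0 h and from 940 to 1021 on the other 9 arrays, and did not pass (-0.23 at 0 h, adjusted p = 0.0924, and -0.20 over time, adjusted p = 0.0579). Over the 9 tested elongases, 1 was called lower and 0 higher in each of those 2 comparisons, and 0 in the other 4. Of all probe sets, 0.533% and 5.19% were called in those 2 comparisons, and 17.6% and 19.2% had groups that did not overlap. Medians were -0.08 for conditioning at 0 h and -0.04 over time without conditioning, with 0.01 and 0.00 over all probe sets.

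**Figure D4:**
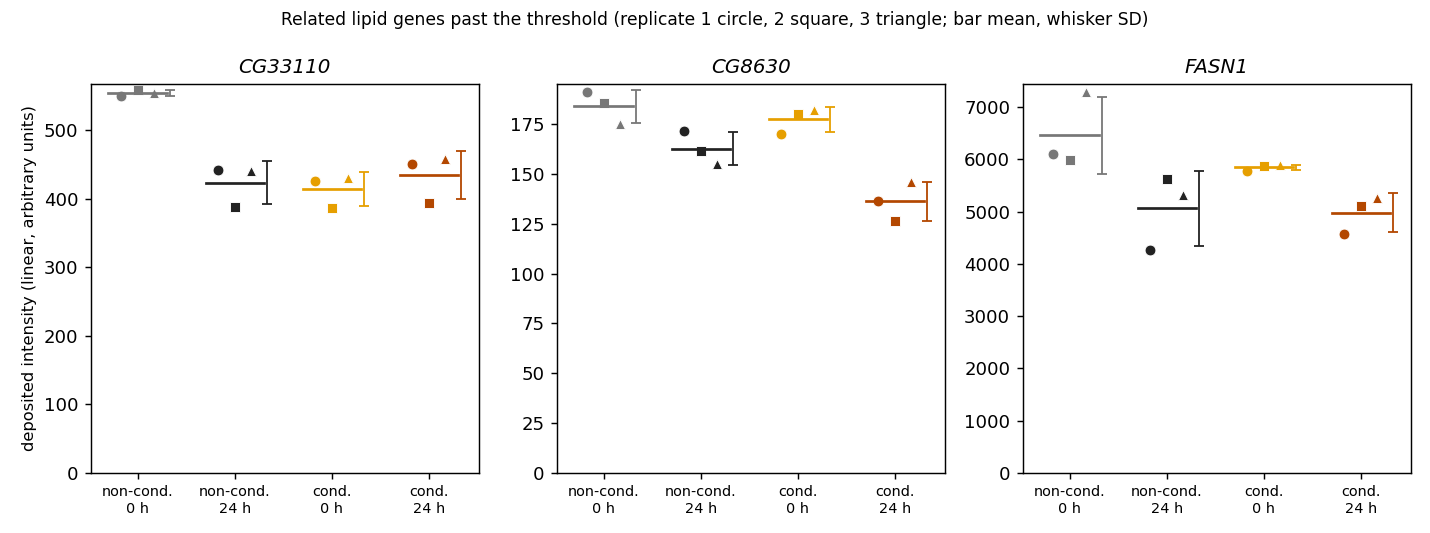
Deposited intensity (linear axis from 0, arbitrary units) of CG33110, CG8630 and FASN1 in the 4 groups; each point is 1 array, the bar is the group mean and the whisker the SD of 3 arrays. The 3 non-conditioned 0 h arrays of CG33110 (550 to 559) lie above the other 9 (386 to 458).

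Genes that supply fatty acids or complete the hydrocarbons made up a list of 16, of which 14 had a probe set and 11 were tested. FASN1, the main fatty acid synthase gene, was lower at 24 h than at 0 h in non-conditioned heads, with a fall from 6458 ± 730 to 5065 ± 716 (SD, n = 3), a log2 change of -0.35 ± 0.10 (SE, limma adjusted p = 0.0428). The groups, 5979 to 7298 and 4256 to 5618, did not overlap, and in conditioned heads the difference was -0.23 (adjusted p = 0.202), also without overlap. Over all probe sets 19.2% and 28.2% had groups that did not overlap in these 2 comparisons, and 5.19% and 4.62% were called. This call was lost in 11 of 12 fits that left out 1 array, at adjusted p-values from 0.0503 to 0.187, and held only without non-conditioned 24 h replicate 2. It was also lost in 6 of 11 other alternatives, among them median centring (0.0687) and the fit without the 3 yolk arrays (0.111). In this comparison the head muscle sum given for bond was lower at 24 h, as FASN1 was, while the fat body sum had a higher median, 14466 against 12016, with overlapping ranges. Their part in the FASN1 result was not tested. Other members of the list did not pass in any comparison, among them ACC, which encodes the enzyme that commits acetyl-CoA to fatty acid synthesis, at 0.09 over time without conditioning. Cyp4g1 was dim and scattered: at 24 h it read 15.1, 10.7 and 2.11 in non-conditioned and 12.3, 47.0 and 58.5 in conditioned heads, which overlap, with a log2 difference of 1.05 ± 0.34 (unadjusted p = 0.00684, limma adjusted p = 0.999). FASN2 and FASN3, the fatty acid synthase genes of oenocytes, were below the filter.

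Genes for sensing pheromones were the last list, with 13 of 14 on the array and 10 tested. limma called 0 of 10 in each of the 6 comparisons, with 0 at an unadjusted p under 0.05 except for 1 in the interaction and 1 over time without conditioning. Of all 11261 probe sets, 807 in the interaction and 2018 over time without conditioning had an unadjusted p under 0.05. Over all probe sets the share called was 5.19% or less in each of the 6 comparisons, so a count of 0 among 10 is near the background. The odorant binding protein gene lush averaged 634 and Snmp1, which encodes a membrane protein of pheromone-sensing neurons, 167. The other 8, among them Or67d, the receptor gene for cis-vaccenyl acetate, and the contact receptor gene ppk23, averaged 10.3 to 16.3 and were as dim as Desat2.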

How the data were processed

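The deposited table holds 1 linear intensity per probe set for 18952 probe sets on 12 Affymetrix arrays, 3 for each of 4 groups. How the authors computed them is not given in the sources used here. Trimmed by 2% at each end, their mean was 150 on every array, so the deposited intensities had been scaled to a common level. All 12 columns were mapped to a sample and no 2 were identical.

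Control probe sets (183) were left out, and the brightest 60% by mean intensity (11261) were tested. Values were used as log2(intensity + 16), which understates changes of dim probe sets. limma 3.58.1 in R 4.3.3 fitted a mean for each group plus the title form (with or without #), with a mean-variance trend and 7 residual degrees of freedom. Tests were two-sided with a Benjamini-Hochberg threshold of 0.05 over all probe sets kept. The fit was tested on simulated data. A single symbol was given for 13646 probe sets, several for 402 and none for 4904, controls included, and 13543 single symbols were brought up to date by gene identifier through RefSeq (assembly: Release 6 plus ISO1 MT). In lists, the brightest probe set stands for a gene, and up to 4 members per list and comparison past the threshold were named, with all members and the 3 genes most like each tested one. Other genes are named as defining markers or were chosen after their values were seen. Alternatives covered the title term, scaling, offset, filter, trend and each array left out. Replicate numbers follow the order of the series and pair no arrays. The members, lists and tests were chosen with earlier results of these data known. The number of arrays limits the precision.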

Additional observations from a re-analysis of the deposited data

How the results depend on the processing

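The count of member probe sets called stayed at 0 in 5 of the 6 comparisons under all 23 alternatives. For 24 h against 0 h in non-conditioned flies, the 1 call, bond, became 0 without the title-form term, in the arrays with # in the title alone, with median centring, with no filter and without the variance trend. It also became 0 without the 3 arrays with yolk transcripts, an alternative chosen after seeing the data, and ranged from 0 to 1 when each array was left out. The difference was between -0.25 and -0.18 throughout, so the direction held. The other 17 differences of tested members did not pass in any of 385 alternative fits, and 12 of these moved by at least 1 SE, 11 of them for Desat1. Filtering on the mean log2 value, also added later, changed no call among the tested members. No paired analysis was possible because the labels give no replicate numbers shared between groups. The planned check of bond on another probe set was not run, since 1 probe set names it. Dim signal limits Fad2, eloF, Elo68alpha and Desat2.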
